A study of Mus musculus with 16 samples.

Results

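Circadian clock genes were followed in mouse retina a day after bright light: Arntl (newer symbol Bmal1), Clock, Per1, Per2, Per3, Cry1, Cry2, Nr1d1, Dbp and Bhlhe40, 10 of the 18193 genes with a probe set of their own symbol. Every probe set whose annotation gave just 1 of these symbols was taken, which gave 22 of the 45037 probe sets. Clock had 4 of them, Per3 6, Per2 3, Arntl and Dbp 2 each, and the other genes 1 each. A probe set was tested when it exceeded an intensity of 16 (log2 4) on at least 2 arrays, and 20 of the 22 did. The other two, for Per2 and Per3, lay at or below log2 2.41 and 3.26 on every array. All 10 genes thus had at least 1 tested probe set, and the brightest over all 16 arrays stands for its gene unless another is named.

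The circadian clock is a loop of transcription factors. The proteins CLOCK and BMAL1 (the product of Arntl) pair and switch on genes through a DNA element called the E-box, among them the Per, Cry, Nr1d1, Dbp and Bhlhe40 genes. PER and CRY proteins return to shut the pair down, REV-ERB alpha (from Nr1d1) represses Arntl, BHLHE40 competes at E-boxes, and DBP carries the rhythm to further genes through the D-box. The mammalian retina holds such a clock of its own, which helps to time dopamine release and visual sensitivity, and light resets clocks partly through cyclic AMP response elements (CRE) in genes such as Per1.

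RNA of the neural retina was measured on 16 Affymetrix arrays, 1 per sample. The groups were BALB/c mice without a working Nxnl1 gene (Nxnl1-/-, knockout) and wild-type BALB/c mice. The knockout groups held 3 (50 lux), 3 (2500 lux) and 2 (5000 lux) arrays, and the wild-type groups held 2, 3 and 3. These groups follow the labels of the samples, since the submitters' design note counts 2 light doses, each in triplicate, while the labels name 3 doses. All mice were 11 to 16 weeks old, of both sexes, and raised in a daily cycle with 12 h of light at 50 lux. Each was kept in darkness for 16 h, then in white fluorescent light of its dose for 1 h, and then in darkness for 24 h before the retina was taken, so the 50 lux groups had the same schedule at the light level of their housing. The time of day of these steps, the way Nxnl1 was inactivated and whether an array held 1 animal or several are not stated in the labels. The p-values therefore measure the spread between these samples, labelled as biological replicates. Nxnl1 encodes a thioredoxin-like factor of rods that supports cone survival. Its log2 level reached at most 2.92 on knockout arrays and was at least 5.64 on wild-type arrays.

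Some arrays stood apart. The pair of knockout arrays at 5000 lux was the least alike within any group (Pearson r = 0.968 over the tested probe sets). Wild-type replicates 1 and 2 at 5000 lux followed (r = 0.975), and then knockout replicate 1 at 50 lux (r = 0.977 and 0.981 with the others of its group). Lens markers, which come from tissue next to the retina, had a mean log2 level of 11.72 on wild-type replicate 2 at 5000 lux, against 2.38 and 3.33 on the other wild-type arrays of that dose. They were at 5.37 to 7.39 on the knockout arrays at 50 lux, highest on replicate 1, at 6.87 on knockout replicate 2 at 2500 lux and at 7.11 on knockout replicate 2 at 5000 lux. Of the cell type markers tested in the mean over genotypes and both bright doses, all 8 rod genes fell, and their summed intensity ran from 70195 to 90913 on bright-light arrays and from 102854 to 112858 on 50 lux arrays. Among the rest, 4 of 7 cone, 5 of 8 Müller glia, 5 of 7 ganglion cell, 6 of 7 pigment epithelium, 2 of 5 bipolar, 2 of 6 amacrine and 1 of 3 horizontal cell genes fell, beside 15.1% of all probe sets tested. Of the markers, 4 of 7 microglia and macrophage genes and all 6 reactive glia genes rose, with 1 gene each of the Müller glia, bipolar, endothelium and blood lists, beside 13.7% of all probe sets. None of the 6 tested lens genes passed. The summed reactive glia intensity was 14666 to 22801 in bright light and 2937 to 3889 at 50 lux. In these whole-tissue samples, fewer cells of a type and less RNA per cell cannot be told apart, and the part of cell makeup in the clock gene values was not tested.

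The promoters of the clock genes were read for the letters through which the loop is known to act, and 4 of them are printed here. They belong to Arntl, Cry2 and Per1, which passed the test in some comparison below, and to Cry1, the other gene with a full E-box. Dbp and Bhlhe40 passed as well, but the window of Dbp held no match and Bhlhe40 had no window. The printed set was thus chosen in part for its motifs. Each window runs from 250 bases before to 50 bases after the start site of a transcript, on the strand of the gene, from RefSeq on build GRCm38.p6. Capitals mark the motifs found.
Arntl promoter, chr7:113207261-113207560, + strand: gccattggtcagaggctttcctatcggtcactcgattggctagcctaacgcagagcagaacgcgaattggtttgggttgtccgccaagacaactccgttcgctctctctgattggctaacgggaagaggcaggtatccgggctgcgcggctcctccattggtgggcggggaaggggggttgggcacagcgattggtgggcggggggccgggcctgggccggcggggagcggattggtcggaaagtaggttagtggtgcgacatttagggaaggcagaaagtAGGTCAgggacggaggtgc
Cry2 promoter, chr2:92434020-92434319, - strand: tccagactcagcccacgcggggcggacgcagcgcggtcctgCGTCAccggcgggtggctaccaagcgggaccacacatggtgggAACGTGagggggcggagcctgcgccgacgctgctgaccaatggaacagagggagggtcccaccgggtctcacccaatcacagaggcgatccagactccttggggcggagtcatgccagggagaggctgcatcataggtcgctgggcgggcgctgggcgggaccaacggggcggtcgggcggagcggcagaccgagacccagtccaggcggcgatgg
Per1 promoter, chr11:69098699-69098998, + strand: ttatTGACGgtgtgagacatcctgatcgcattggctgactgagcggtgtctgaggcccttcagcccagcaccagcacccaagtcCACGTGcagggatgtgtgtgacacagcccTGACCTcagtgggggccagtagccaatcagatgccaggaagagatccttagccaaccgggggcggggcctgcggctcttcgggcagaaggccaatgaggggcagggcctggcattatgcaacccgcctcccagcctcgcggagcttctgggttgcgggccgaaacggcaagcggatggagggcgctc
Cry1 promoter, chr10:85185005-85185304, - strand: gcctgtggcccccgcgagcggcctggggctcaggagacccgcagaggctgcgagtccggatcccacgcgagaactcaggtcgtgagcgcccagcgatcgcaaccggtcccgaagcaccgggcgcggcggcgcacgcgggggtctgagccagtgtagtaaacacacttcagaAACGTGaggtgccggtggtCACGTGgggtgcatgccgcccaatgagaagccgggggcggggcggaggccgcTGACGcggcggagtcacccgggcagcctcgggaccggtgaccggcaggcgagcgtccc
The letters searched on both strands were CACGTG (E-box), CACGTT (E'-box, a variant), TTATGTAA and TTACGTAA (D-box), AGGTCA (the core bound by REV-ERB and ROR proteins), TGACGTCA (CRE) and TGACG (the CRE core, which lies within the CRE). A match on the opposite strand appears in the printed lines as its reverse complement, such as AACGTG for the E'-box. Per1 had the E-box at -166, the REV-ERB core on the opposite strand at -137 and the CRE core at -246, counted from the start site, and its other window held the CRE core at -132. Cry1 had the E-box at -60, the E'-box on the opposite strand at -79 and the CRE core at -8. Cry2 had the E'-box at -166 and the CRE core at -209, both on the opposite strand. Arntl had the REV-ERB core at 32 in this window and no match in its other window. Windows were present for 8 of the genes (12 windows), all but Per2 and Bhlhe40, and 7 of those 8 genes had at least 1 match. Per3 had the D-box TTATGTAA at -205 and at -158, Nr1d1 the E'-box on the opposite strand at -28, and Clock the REV-ERB core on the opposite strand at -119 in 1 of its 3 windows. The window of Dbp held none of these letters. Of all 32851 promoter windows, 7.15% held the E-box, 4.685% the E'-box, 0.9376% TTATGTAA, 0.1187% TTACGTAA, 16.26% the REV-ERB core, 1.79% the CRE and 20.81% the CRE core. Among the 12 clock gene windows, 2 held the E-box, 3 the E'-box, 1 the D-box, 3 the REV-ERB core and 4 the CRE core.

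Bright light was first compared with 50 lux as the mean over both genotypes and both bright doses. A day after bright light, the repressor gene Bhlhe40 and the output gene Dbp were higher, and Arntl and Cry2 were lower. The largest of these changes was 1.61-fold. Thus 4 of the 10 genes passed the test, 2 up and 2 down. Over all 23320 probe sets tested 28.9% passed, 13.7% up and 15.1% down, so the clock genes' share stands beside a retina in which a large part of all probe sets changed. Here and in the other counts of genes, each gene was counted by its brightest probe set. The shares over all probe sets count every tested probe set, so the units differ. Among the other tested probe sets of the clock genes, just the Clock probe set 1435775_at passed in this mean. The median log2 change of the 10 genes was -0.08, with a median size of 0.21, and over all probe sets tested these were -0.01 and 0.19. The test was limma's moderated test in a fit of all 16 arrays, with Benjamini-Hochberg adjustment over all probe sets tested and a threshold of 0.05.

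**Figure D1:**
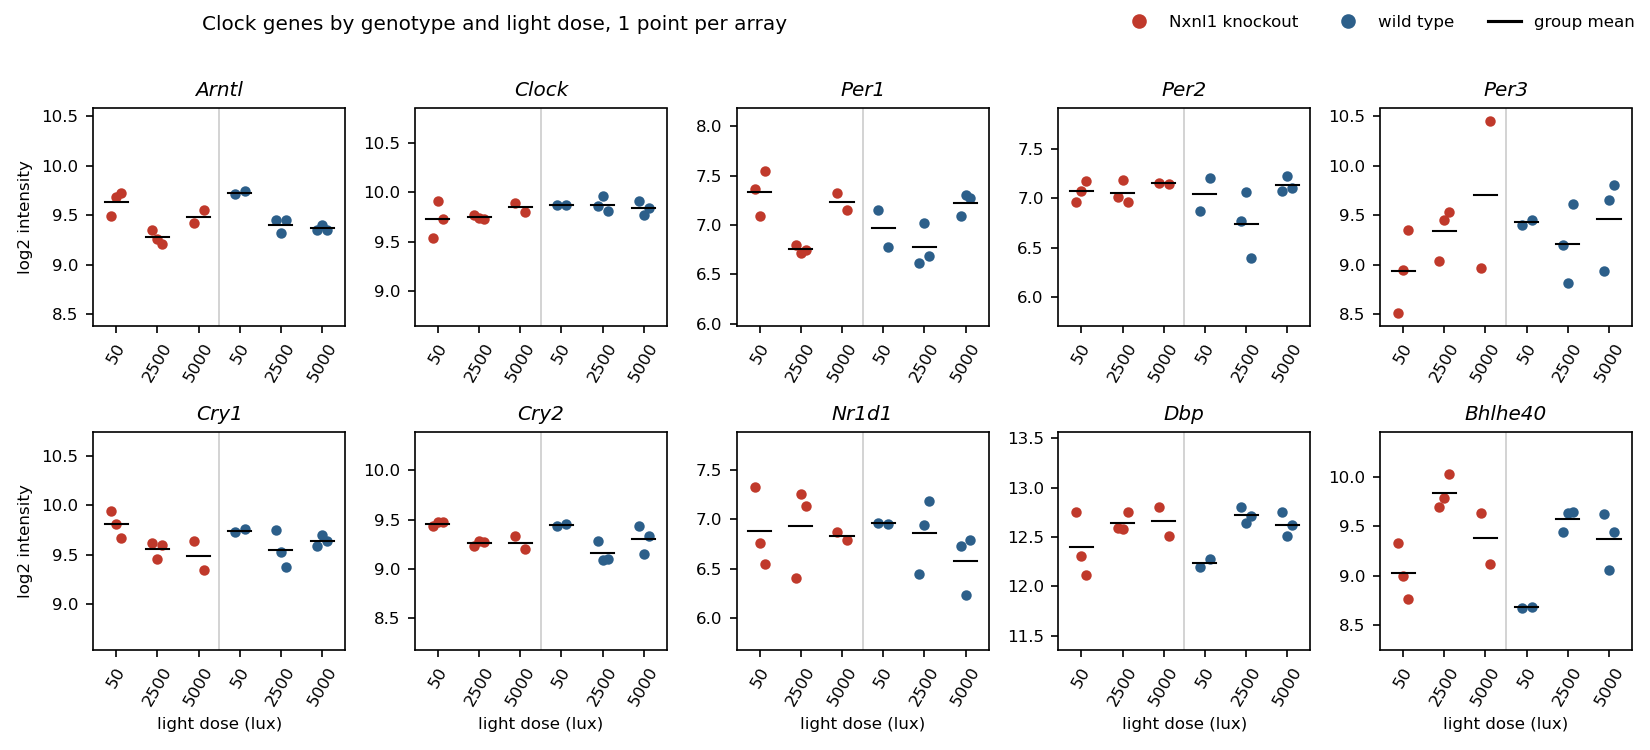
Log2 intensity of each clock gene (vertical axis, the same span in each panel) by light dose in lux, with knockout retinas left of wild-type retinas. Each point is 1 array and each bar a group mean. Bhlhe40 lies higher and Arntl lower at 2500 lux than at 50 lux in both genotypes, and Per3 and Nr1d1 show the widest scatter among replicates.

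Bhlhe40 encodes a basic helix-loop-helix repressor that opposes CLOCK and BMAL1 and also responds to hypoxia in many tissues. Its log2 levels in knockout retinas were 9.32, 8.99 and 8.76 at 50 lux, 9.69, 9.78 and 10.03 at 2500 lux, and 9.64 and 9.12 at 5000 lux. In wild-type retinas they were 8.67 and 8.68 at 50 lux, 9.44, 9.64 and 9.64 at 2500 lux, and 9.62, 9.06 and 9.44 at 5000 lux. Of the 11 bright-light arrays 9 lay above every 50 lux array. Replicate 2 at 5000 lux of either genotype was the exception, and both lay below knockout replicate 1 at 50 lux. Lens markers were high on both (mean log2 7.11 in knockout, 11.72 in wild type). They were also high on knockout replicate 1 at 50 lux (7.39) and on knockout replicate 2 at 2500 lux (6.87), where Bhlhe40 was at 9.32 and 9.78. The part of lens tissue in the Bhlhe40 values was not tested. The mean response was a log2 change of 0.69 (SE 0.12, 1.61-fold, adjusted p = 0.000945 by limma). It ran from 0.62 to 0.76 when each array was left out in turn and passed the test in 16 of 16 of these fits. Without knockout replicate 2 at 5000 lux it was 0.75, and without the wild-type replicate 2 of that dose 0.73.

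Arntl, the activator at the top of the loop, went the other way. In knockout retinas its log2 levels were 9.49, 9.68 and 9.72 at 50 lux, 9.35, 9.26 and 9.21 at 2500 lux, and 9.42 and 9.55 at 5000 lux. In wild-type retinas they were 9.71 and 9.75 at 50 lux, 9.45, 9.32 and 9.45 at 2500 lux, and 9.35, 9.41 and 9.36 at 5000 lux. All bright-light arrays but knockout replicate 2 at 5000 lux lay below every 50 lux array. Arntl fell by 0.30 on the log2 scale (SE 0.06, 1.23-fold lower, adjusted p = 0.00313 by limma), and it passed in 16 of 16 fits that left out an array. A second, dimmer Arntl probe set, with values between log2 4.35 and 5.57, had a change of 0.07 (adjusted p = 0.706).

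Cry2, which encodes a repressor that binds CLOCK and BMAL1 directly, changed least in size among the genes that passed, and its bright-light and 50 lux arrays did not overlap. Its log2 levels in knockout retinas were 9.43, 9.47 and 9.47 at 50 lux, 9.23, 9.28 and 9.27 at 2500 lux, and 9.34 and 9.20 at 5000 lux. In wild-type retinas they were 9.44 and 9.46 at 50 lux, 9.28, 9.10 and 9.10 at 2500 lux, and 9.43, 9.15 and 9.34 at 5000 lux. The highest bright-light array, wild-type replicate 1 at 5000 lux, and the lowest 50 lux array were equal at 2 decimals (9.43), so the groups met without crossing. Cry2 fell by 0.21 (SE 0.06, 1.15-fold lower, adjusted p = 0.0284 by limma). The adjusted p ran from 0.0206 to 0.0934 when each array was left out, and the call was kept in 11 of 16 fits. It was lost without either wild-type array at 50 lux (0.0925 and 0.0934), without knockout replicate 2 or 3 at 50 lux, and without knockout replicate 2 at 5000 lux.

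Cry1, the paralog of Cry2, was close to it in direction and size but did not pass. Its log2 levels ran from 9.34 to 9.75 with a median of 9.60 on the bright-light arrays, and from 9.67 to 9.94 with a median of 9.76 on the 50 lux arrays. The change was -0.22 (SE 0.08, adjusted p = 0.059 by limma), and 9 of 11 bright-light arrays lay below every 50 lux array. Under 5 of 8 other settings of the analysis it passed, with adjusted p between 0.0386 and 0.0812 over the 8. When each array was left out in turn, Cry1 passed in 3 of 16 fits, with adjusted p from 0.0288 to 0.159 by limma.

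Dbp encodes a D-box activator whose transcript is among the strongest rhythmic outputs of many clocks. Its log2 levels in knockout retinas were 12.76, 12.31 and 12.12 at 50 lux, 12.59, 12.58 and 12.75 at 2500 lux, and 12.80 and 12.51 at 5000 lux. In wild-type retinas they were 12.20 and 12.27 at 50 lux, 12.80, 12.65 and 12.71 at 2500 lux, and 12.75, 12.51 and 12.62 at 5000 lux. Knockout replicate 1 at 50 lux reached the bright-light range, and just 2 of 11 bright-light arrays lay above it. Dbp rose by 0.34 (SE 0.10, 1.27-fold, adjusted p = 0.0188 by limma), and by 0.43 without that array (adjusted p = 0.00148). The call was lost without either wild-type array at 50 lux (adjusted p = 0.0898 and 0.0514). The other Dbp probe set had a change of 0.17 (SE 0.12, adjusted p = 0.335), and its deviations from the group means followed those of the first closely (r = 0.93 over 16 arrays).

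The remaining members did not pass in the mean response, and their intervals show what sizes the data allow. The log2 levels of Clock, which encodes the partner of BMAL1, ran from 9.73 to 9.96 (median 9.81) on the bright-light arrays and from 9.53 to 9.91 (median 9.87) on the 50 lux arrays. Clock had a change of 0.03 (95% interval -0.12 to 0.18, adjusted p = 0.781 by limma). Per2 ran from 6.39 to 7.22 in bright light and from 6.87 to 7.20 at 50 lux, with a median of 7.07 in both. Per1 and Per2, light-inducible repressors, had changes of -0.15 (-0.36 to 0.06, adjusted p = 0.269) and -0.04 (-0.25 to 0.18, adjusted p = 0.822). Per3, a family member with a lesser role in the core loop, ran from 8.82 to 10.45 (median 9.45) in bright light and from 8.51 to 9.45 (median 9.35) at 50 lux, with a change of 0.25 (-0.26 to 0.76, adjusted p = 0.462). Nr1d1 ran from 6.23 to 7.25 (median 6.79) in bright light and from 6.55 to 7.33 (median 6.95) at 50 lux, with a change of -0.12 (-0.49 to 0.26, adjusted p = 0.649). In all of these genes the bright-light and 50 lux arrays overlapped, and the intervals of Per3 and Nr1d1 were the widest of the 10 genes.

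The 4 Clock probe sets did not move together. The brightest had the near-zero change above and 2 others had changes of -0.12 and -0.05, none past the threshold. The probe set 1435775_at fell by 0.37 (SE 0.08, adjusted p = 0.00323 by limma). Its log2 levels ran from 8.28 to 8.78 with a median of 8.47 on the bright-light arrays and from 8.76 to 8.93 with a median of 8.87 on the 50 lux arrays, and 10 of 11 bright-light arrays lay below all at 50 lux. In wild-type retinas at 5000 lux it passed as well (-0.48, SE 0.13, adjusted p = 0.033). Its correlation with the brightest probe set was -0.13 over the 16 arrays. Which Clock transcripts each probe set reads was not analysed here. Of the 5 tested Per3 probe sets all had changes above 0 in the mean response, between 0.10 and 0.52, and none passed. The sign was not shared in wild-type retinas at 2500 lux, where changes ran from -0.52 to 0.07 and just 1442243_at lay above 0. At 5000 lux they ran from 0.04 to 0.36. In knockout retinas they ran from 0.11 to 0.75 at 2500 lux and from 0.40 to 1.17 at 5000 lux. At 50 lux all 5 were lower in knockout than in wild-type retinas (-0.74 to -0.29). The dimmest, 1460662_at, exceeded log2 4 on just 5 of 16 arrays. In the mean response the nearest to the threshold was 1442243_at (0.52, SE 0.19, adjusted p = 0.0561). In knockout retinas that probe set was at log2 7.71 and 9.02 at 5000 lux, against 7.10, 6.96 and 7.54 at 50 lux, a rise of 1.17 (SE 0.32, adjusted p = 0.0325) whose 2 arrays at 5000 lux lay far apart.

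**Figure D2:**
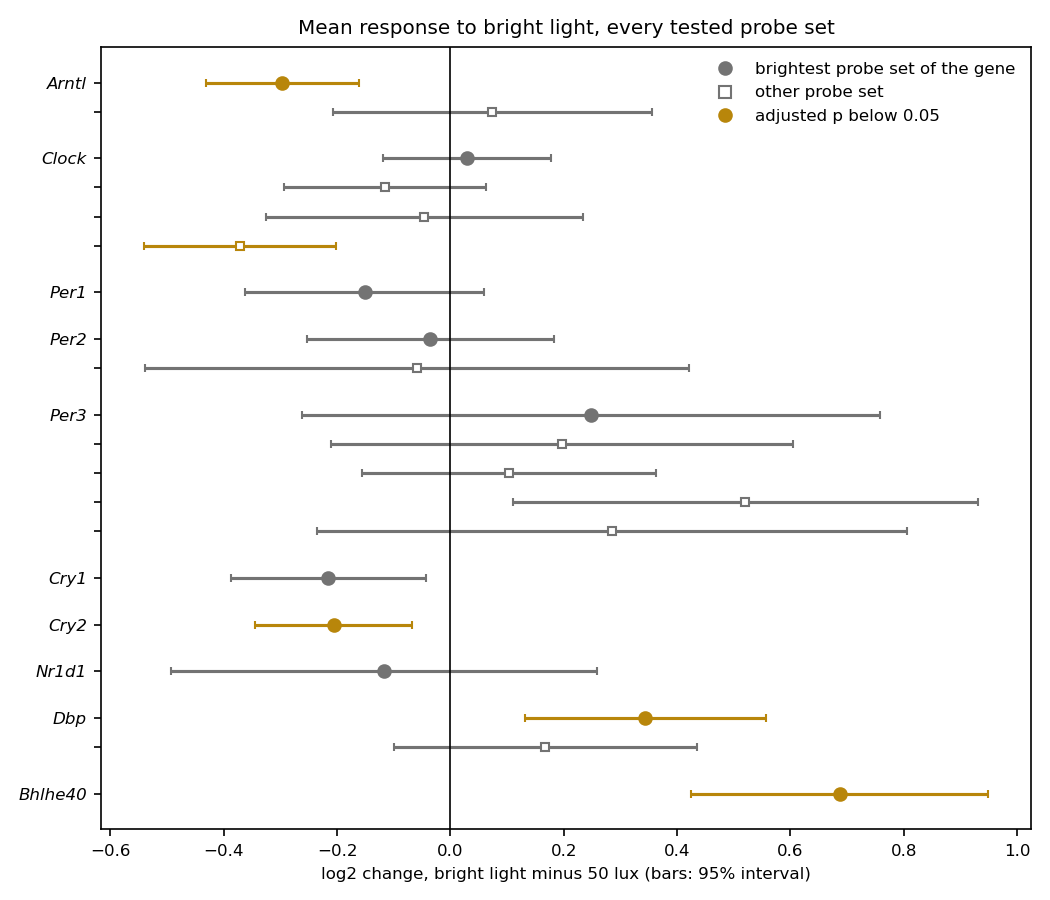
Log2 change in bright light minus 50 lux, as the mean over genotypes and both bright doses, for each of the 20 tested probe sets, grouped by gene. Circles are the brightest probe set of a gene, squares the others, bars 95% intervals, and gold marks an adjusted p below 0.05. Bhlhe40 and Dbp lie right of 0, Arntl, Cry2 and 1 Clock probe set lie left of it.

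The response was then taken in each genotype and dose, which asked whether the clock genes moved alike with and without Nxnl1. The 2 bright doses of a genotype share their 50 lux arrays, so their responses are not independent of each other. At 2500 lux in knockout retinas 3 of the 10 genes passed, 1 up and 2 down, where 19.3% of all probe sets passed. At 5000 lux in knockout retinas none passed at the adjusted threshold and 1 had an unadjusted p under 0.05, where 11.4% of all probe sets passed. At 2500 lux in wild-type retinas 1 of 10 passed, beside 11.8% of all, and at 5000 lux 2 of 10 passed, beside 10.5% of all.

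Bhlhe40 passed in 3 of these 4 responses. In knockout retinas it averaged 9.83 ± 0.18 at 2500 lux and 9.03 ± 0.28 at 50 lux (SD, n = 3 each), a rise of 0.81 (SE 0.18, adjusted p = 0.007 by limma), which was kept in all 6 fits that left out an array. In wild-type retinas the rise was 0.90 at 2500 lux (SE 0.20, adjusted p = 0.0112) and 0.70 at 5000 lux (SE 0.20, adjusted p = 0.0436). The first of these was lost without either wild-type array at 50 lux (adjusted p = 0.0834 and 0.0746). The second was kept in just 1 of 5 such fits, the one without the lens-rich replicate 2, where the change was 0.85 (adjusted p = 0.02), and lost in the other four, with adjusted p up to 0.211. At 5000 lux in knockout retinas the change was 0.35 (95% interval -0.09 to 0.79, adjusted p = 0.266).

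Arntl passed in knockout retinas at 2500 lux, where it averaged 9.28 ± 0.07, against 9.63 ± 0.13 at 50 lux (SD, n = 3 each), a change of -0.36 (SE 0.09, adjusted p = 0.0158 by limma). Leaving out knockout replicate 3 at 50 lux or replicate 2 or 3 at 2500 lux ended that call, with adjusted p up to 0.0708, as did a fit of just the 2 groups compared (adjusted p = 0.0706). In wild-type retinas it passed at 5000 lux (-0.36, SE 0.10, adjusted p = 0.0423), a call that each of the 5 fits without an array lost, with adjusted p between 0.0722 and 0.201. At 2500 lux in wild-type retinas the change was -0.32 (adjusted p = 0.0617) with no overlap between the groups, and at 5000 lux in knockout retinas it was -0.15 (95% interval -0.37 to 0.08, adjusted p = 0.363). Dbp and Cry2, which passed in the mean response, passed in none of the 4 single responses. Their changes there were 0.24 to 0.48 for Dbp and -0.29 to -0.14 for Cry2.

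Per1, which encodes a repressor that light induces quickly in many clocks, was the member whose level differed most between the bright doses. In knockout retinas its log2 levels were 7.36, 7.09 and 7.54 at 50 lux, 6.80, 6.72 and 6.75 at 2500 lux, and 7.32 and 7.15 at 5000 lux. In wild-type retinas they were 7.16 and 6.77 at 50 lux, 6.61, 7.02 and 6.69 at 2500 lux, and 7.09, 7.31 and 7.27 at 5000 lux. At 2500 lux it lay below all other knockout arrays, while at 5000 lux it was back within the range of 50 lux. In knockout retinas Per1 fell by 0.58 at 2500 lux against 50 lux (SE 0.15, adjusted p = 0.0139 by limma), a call lost without knockout replicate 3 at 50 lux (change -0.47, adjusted p = 0.0626). In wild-type retinas the change at 2500 lux was -0.19 (adjusted p = 0.524). The difference between the genotypes in this response was -0.38 (95% interval -0.85 to 0.09, adjusted p = 0.6), so a genotype effect on Per1 was not shown.

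**Figure D3:**
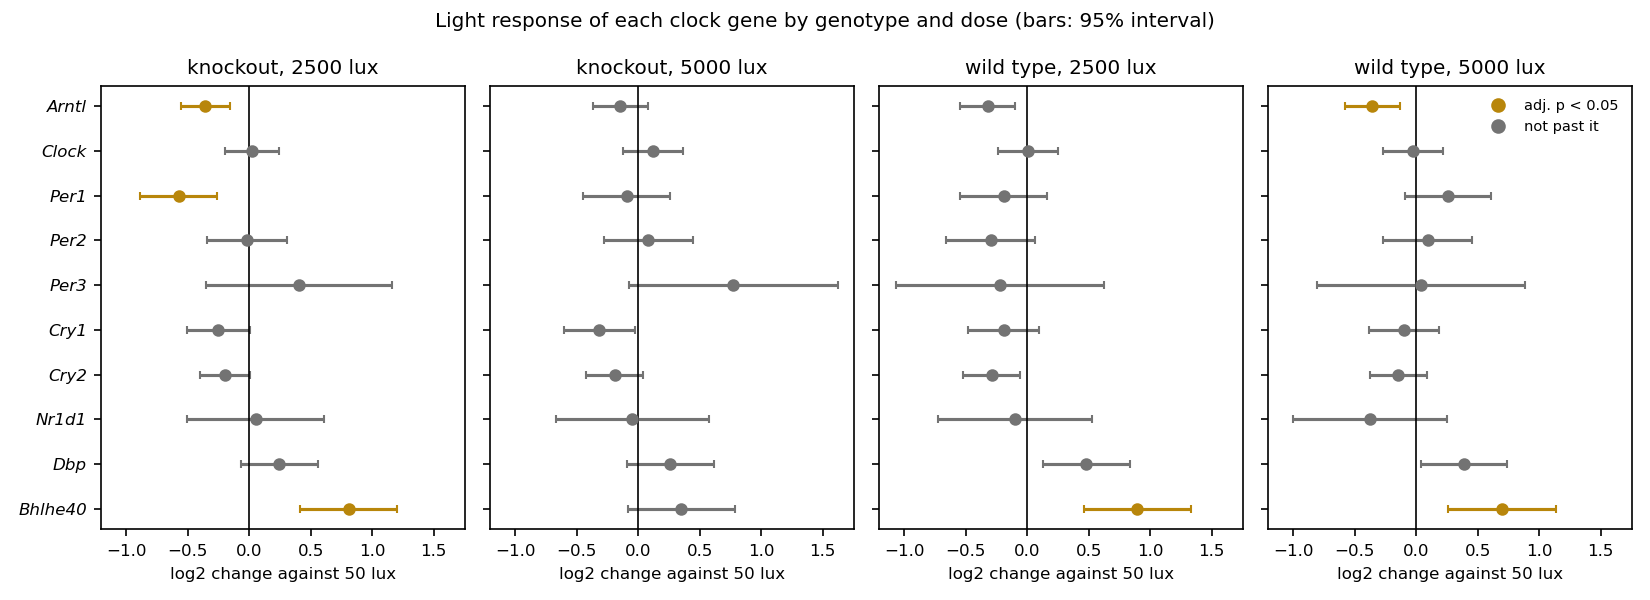
Log2 change of each clock gene against 50 lux in the 4 responses, knockout retinas at 2500 and 5000 lux and then wild-type retinas at 2500 and 5000 lux. Points are changes of the brightest probe set, bars 95% intervals, and gold marks an adjusted p below 0.05. Bhlhe40 is gold in 3 panels, Arntl in 2 and Per1 in 1, and no gene is gold for knockout retinas at 5000 lux.

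The step between the bright doses was compared within each genotype. None of the 10 genes passed at 5000 against 2500 lux in either genotype, where 0.0772% of all probe sets passed in knockout retinas and 0% in wild-type retinas. At an unadjusted p under 0.05 there were 2 genes in each. Per1 was higher at 5000 lux by 0.48 in knockout retinas (SE 0.16, unadjusted p = 0.0112, adjusted p = 0.27 by limma) and by 0.45 in wild-type retinas (SE 0.15, unadjusted p = 0.0086, adjusted p = 0.573), and in neither genotype did the 2 doses overlap. The other such values were -0.46 for Bhlhe40 in knockout retinas (adjusted p = 0.379) and 0.39 for Per2 in wild-type retinas (adjusted p = 0.591).

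Knockout and wild-type retinas were compared at each dose, and none of the 10 genes passed. The share of all probe sets that passed was 0.326% at 50 lux, 0.0943% at 2500 lux and 0.00429% at 5000 lux. An unadjusted p under 0.05 was found for 1 gene at 50 lux and none at the other doses. That gene was Per1, at 7.33 ± 0.23 in knockout retinas (SD, n = 3) and 6.97 ± 0.27 in wild-type retinas (SD, n = 2), a change of 0.37 (SE 0.16, unadjusted p = 0.0424, adjusted p = 0.328 by limma) with overlapping arrays. Bhlhe40 at 50 lux was higher on all 3 knockout arrays than on both wild-type arrays (change 0.35, 95% interval -0.09 to 0.79, adjusted p = 0.423). Between the same groups 2 of 6 reactive glia markers rose, with a median change of 1.36 over the 6 and a summed intensity of 3190 to 3889 on knockout arrays and 2937 to 2966 on wild-type arrays. Lens markers had a summed intensity of 1787 to 7021 on knockout arrays and 53 to 163 on wild-type arrays, with none of 6 past the threshold, and the part of either list in the Per1 and Bhlhe40 values was not tested. The changes over the 10 genes spanned -0.49 to 0.37 at 50 lux, -0.13 to 0.31 at 2500 lux and -0.15 to 0.25 at 5000 lux.

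The genotype difference in the light response was tested as an interaction. None of the 10 genes passed at 2500 lux, where 0.0472% of all probe sets passed, or at 5000 lux, where 0.0257% did, and none had an unadjusted p under 0.05 in either. For Bhlhe40 the knockout response minus the wild-type response was -0.09 at 2500 lux (95% interval -0.68 to 0.50) and -0.35 at 5000 lux (-0.96 to 0.27). For Arntl it was -0.03 (-0.33 to 0.27) and 0.21 (-0.10 to 0.53). These intervals include differences as large as several of the responses themselves, and the number of arrays limits the precision.

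Replicates of a group also differed from each other, and among some clock genes they did so jointly. With each group mean removed, arrays with less Arntl had more Bhlhe40 (r = -0.80), more Dbp (r = -0.74) and more Nr1d1 (r = -0.69), over 16 arrays in 6 groups. Without the 2 arrays whose Arntl deviated most, the values were -0.81, -0.74 and -0.63. The group means were not taken anew for this, so those 2 arrays still shaped the deviations that were left. Among the 10915 other genes, 1.12% had a correlation with Arntl at least as far from 0 as Bhlhe40 had, 3.47% as far as Dbp and 6.08% as far as Nr1d1. Dbp and Bhlhe40 deviated the same way (r = 0.82), as did Nr1d1 and Bhlhe40 (r = 0.72). The arrays share their probes' normalization and their tissue makeup, so these values are a description of the arrays.

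The arrays at the ends of this spread can be named. Knockout replicate 1 at 50 lux was 0.14 below its group mean in Arntl and 0.30, 0.36 and 0.45 above it in Bhlhe40, Dbp and Nr1d1. Knockout replicate 3 at 50 lux was 0.09 above its mean in Arntl and 0.26, 0.28 and 0.33 below it in the other three. Lens markers were at 7.39 on replicate 1 and at 5.37 on replicate 3. The labels do not state the animals' clock time at collection. The parts of clock time and of lens tissue in this spread were not tested. The spread within groups differed by gene, with an SD of 0.08 for Arntl, 0.09 for Cry2 and 0.10 for Clock, and of 0.35 for Nr1d1 and 0.48 for Per3. Per3 was below its group mean on the array numbered 1 in each of the 6 groups and above it on the array numbered 3 in each of the 4 groups that had one.

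**Figure D4:**
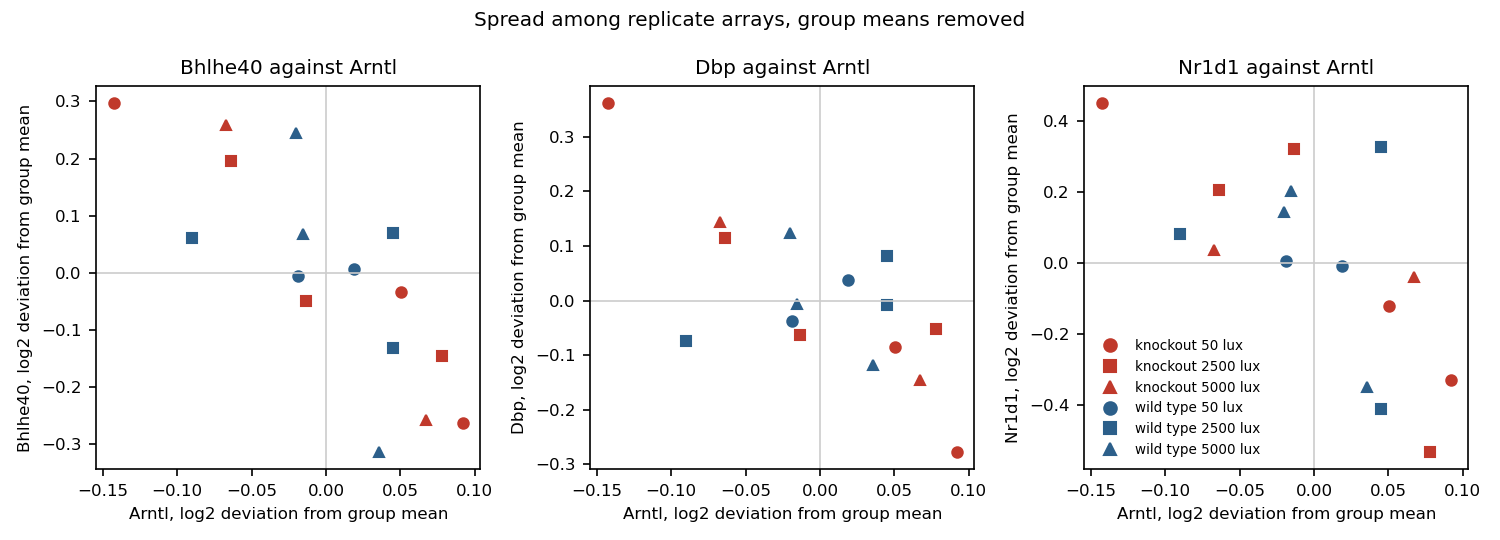
Deviation of each array from its group mean, in log2 units, for Bhlhe40, Dbp and Nr1d1 (vertical axes) against Arntl (horizontal axis). Red is knockout, blue is wild type, and circles, squares and triangles are 50, 2500 and 5000 lux. Knockout replicate 1 at 50 lux lies farthest to the upper left in each panel, and wild-type replicate 2 at 2500 lux, next lowest in Arntl (-0.09), lies below 0 in the Dbp panel (-0.07).

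For the 5 members that passed in a light response, the genes whose log2 values followed theirs most closely over the 16 arrays were looked up among 10915 others. Bhlhe40 was most like Dusp26, Clic4 and Fn1 (r = 0.955, 0.955 and 0.952), and Arntl most like Cdk19, Tbc1d8 and Cfap54 (r = 0.954, 0.943 and 0.937). Dbp was most like Hat1, Stn1 and Ebna1bp2 (r = 0.935, 0.930 and 0.928). Cry2 was most like Kif1a, Bsg and Atp5b (r = 0.924, 0.883 and 0.877). Per1 was most like Dnajc13, Rbm5 and Tchp (r = 0.885, 0.853 and 0.827). None of the 10 clock genes was among them.

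Further genes of the clock were read from a list of 20, of which 15 were tested. In the mean response 5 rose and 3 fell, with a median log2 change of 0.01, beside 28.9% called and a median of -0.01 over all probe sets tested. Timeless, which encodes a replication fork protein with a debated clock role in mammals, rose by 0.81 (SE 0.12, adjusted p = 0.000289 by limma). Its probe set was dim, with a mean log2 level of 5.055. Ciart, a repressor of CLOCK and BMAL1, rose by 0.62 (SE 0.15, adjusted p = 0.00613), and Cipc, another such repressor, by 0.21 (SE 0.06, adjusted p = 0.0158) with no overlap between bright-light and 50 lux arrays. Hlf, a D-box activator related to Dbp, fell by 0.40 (SE 0.10, adjusted p = 0.0116). Fbxw11, a ubiquitin ligase subunit that acts on PER proteins, rose by 0.20 (SE 0.06, adjusted p = 0.0335). Thus Dbp and Hlf, both of the same factor family, were called in opposite directions. The other 3 that passed are named after their values were seen. Bhlhe41, the paralog of Bhlhe40, fell by 0.43 (SE 0.15, adjusted p = 0.0432 by limma). Its probe set was dim, with a mean log2 level of 4.34, near the filter of 4. Its changes at 2500 and 5000 lux were -1.03 and -0.41 in wild-type retinas and -0.37 and 0.09 in knockout retinas. Csnk1d, a kinase of PER proteins, rose by 0.25 (adjusted p = 0.0374), and Btrc, the paralog of Fbxw11, fell by 0.21 (adjusted p = 0.0464). The Csnk1d log2 levels in wild-type retinas were 9.43 and 9.58 at 50 lux and 9.82 to 10.17 in bright light. In knockout retinas they were 9.73 to 9.98 at 50 lux and 9.66 to 10.04 in bright light, so a rise was not seen there. The log2 levels of Ciart ran from 6.39 to 6.93 with a median of 6.72 on the bright-light arrays and from 5.66 to 6.86 with a median of 6.06 on the 50 lux arrays. Knockout replicate 1 at 50 lux again lay in the bright-light range, as it did for Dbp.

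Of 10 rhythmic output genes 7 were tested, and 2 rose and 1 fell, with a median change of -0.01, beside 13.7% of all probe sets that rose and 15.1% that fell. Tspo, a mitochondrial outer membrane protein gene that marks activated microglia as well, rose by 1.54 (SE 0.16, adjusted p = 1.17e-05 by limma). Fkbp5, a glucocorticoid-responsive chaperone gene, fell by 0.48 (SE 0.08, adjusted p = 0.000776), and Nampt, which encodes the enzyme that limits NAD salvage, rose by 0.20 (SE 0.07, adjusted p = 0.0407). Fkbp5 was at log2 7.92 to 8.24 at 50 lux and 7.24 to 7.46 in bright light in knockout retinas. In wild-type retinas these ranges overlapped (7.52 to 7.65 and 7.16 to 7.55). Nampt in knockout retinas was at 8.47 to 8.78 at 50 lux, 8.82 to 8.90 at 2500 lux, and 8.57 and 8.47 at 5000 lux. In wild-type retinas it was at 8.33 and 8.39 at 50 lux and 8.55 to 8.83 in bright light. Drd4, the dopamine D4 receptor gene of photoreceptors, had a change of 0.32 (adjusted p = 0.0533), and the G protein gene Gnaz one of -0.26 (adjusted p = 0.0961). Microglia and macrophage markers, with which Tspo is shared, had a summed intensity of 1706 to 3238 in bright light and 300 to 643 at 50 lux, and their part in the Tspo value was not tested.

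Of 12 genes of light input to clocks 8 were tested, and 5 rose and 1 fell, with a median change of 0.60, beside 28.9% of all probe sets that passed in either direction. Junb, an AP-1 subunit, rose by 3.50 (SE 0.19, adjusted p = 3.03e-08 by limma), and the nuclear receptor gene Nr4a1 by 1.30 (SE 0.18, adjusted p = 0.000156). Fos rose by 0.98 (SE 0.23, adjusted p = 0.00556), Crem, a regulator at CREs, by 0.69 (SE 0.14, adjusted p = 0.00295), and Creb1, which encodes the CRE activator, by 0.51 (SE 0.13, adjusted p = 0.00858). Bright-light and 50 lux arrays overlapped for Fos and Creb1 but not for Junb, Nr4a1 and Crem. All these levels were read after 24 h of darkness, when reactive glia markers were higher too. The part of the reactive glia change in them was not tested. The gene that fell, named after its value was seen, was Crtc1, a CREB coactivator (-0.38, SE 0.10, adjusted p = 0.013 by limma). Opn4, the melanopsin gene, and Aanat of the output list were on the array but too dim to be tested. None of the tested genes of the 3 lists passed in a comparison of knockout with wild type or in an interaction.

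**Figure D5:**
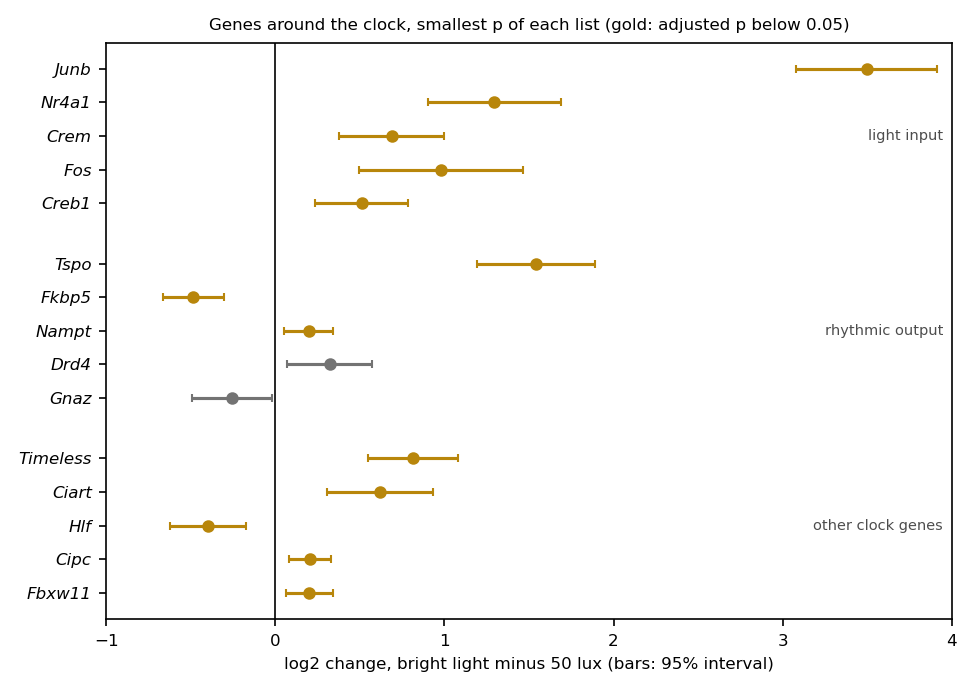
Log2 change in bright light minus 50 lux, as the mean over genotypes and both bright doses, for the 5 genes with the smallest p in each of the 3 further lists. Points are changes, bars 95% intervals, and gold marks an adjusted p below 0.05. Junb lies farthest right at 3.50, and the genes of the clock and output lists lie between -0.48 and 1.54.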

How the data were processed

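The deposited values are intensities, linear and 1 for each probe set on each array. GCRMA, which corrects background, normalizes and summarises probes, is the tool named in the submitters' processing notes, without settings. Log2 was taken of the deposited intensity values. Probe sets above log2 4 on at least 2 of 16 arrays (23320 of 45037) were fitted in limma 3.58.1 under R 4.3.3 with a mean for each of 6 groups and empirical Bayes moderation without an intensity trend (10 residual and 3.184 prior degrees of freedom), and 12 contrasts were taken. P-values were adjusted by Benjamini-Hochberg over all probe sets tested in a contrast. The fit was also run on simulated data with independent normal noise for each probe set and array. That noise held no lens signal and no deviations shared between arrays, so the run does not bear on the stability of the calls above. Gene symbols came from the platform annotation, and a probe set with several symbols was not used. Named genes were all members, the 5 genes with the smallest p in the mean response in each further list, and the 3 genes most like each member called in a light response. The members and lists were chosen with earlier results of these data known. Array weights, a trend, other filters, offsets and normalizations, a replicate block and leaving out arrays were tried. The precision is limited by the number of arrays.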

Additional observations from a re-analysis of the deposited data

How the results depend on the processing

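The mean response of Arntl and Bhlhe40 passed under each of 8 settings and 16 left-out arrays tried, apart from the dim Arntl probe set below. The count of clock genes called moved elsewhere. For wild-type retinas at 2500 lux it was 1 and became 2 without the filter, with log2(value + 16), with each array centred on its median, with an intensity trend and with a replicate block, and 3 with array weights. It ranged from 0 to 1 when arrays were left out, and was 0 without either 50 lux array. For wild-type retinas at 5000 lux it was 2 and became 1 without the filter, with median centring and with quantile normalization, and 0 with just the arrays of the groups compared, with a range of 0 to 1 over left-out arrays. For knockout retinas at 2500 lux it was 3, with a range of 1 to 4 over left-out arrays, the lowest without knockout replicate 3 at 50 lux, and the Arntl call there held in 8 of 9 settings, all but the fit of just the groups compared (adjusted p = 0.0706 by limma). For knockout retinas at 5000 lux it was 0, became 1 with a replicate block, and ranged from 0 to 1 over left-out arrays. For the mean response it was 4, with a range of 2 to 5, the lowest without either wild-type array at 50 lux. The cause of these shifts was not tested. Fits that left out arrays also held fewer of them. Counts for the bright-dose step, the genotype comparisons and the interactions were 0 under all settings run. The labels state no pairing by replicate number, and same-numbered arrays of different groups deviated together just in part (mean r 0.165, from -0.24 to 0.69, above 0.1 in 21 of 36 pairs). Arrays of different numbers had a mean r of -0.084 (above 0.1 in 13 of 70 pairs). Deviations from a group mean cancel within the group, so this mean r is tied to that of same-numbered arrays and is not a separate observation. The reported fit followed the labels and assumed no pairing. Same-numbered arrays were more alike on average, and what they share was not tested. Any such shared part is not removed in the reported fit, and a replicate block was tried as another setting. The sign turned for the dim Arntl probe set 1457740_at in knockout retinas at 2500 lux (0.084) and in the mean response (0.074), and for the Clock probe set 1435775_at in the mean response (-0.37). The mean response also lay on the other side of 0 from the brightest Clock probe set (0.03) for 1418660_at (-0.12) and 1439314_at (-0.05). Over settings and left-out arrays the changes of Clock (-0.02 to 0.08) and Per2 (-0.12 to 0.05) crossed 0, and none of these passed. A mean response fitted to just the arrays compared is the reported fit, since all 16 arrays enter it. The correlations without 2 arrays were added after seeing the data. Groups of 2 or 3 arrays leave changes of the sizes in the intervals above undecided.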
